A study of Caenorhabditis elegans with 12 samples.

Results

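The UDP-glucuronosyltransferase (UGT) family of Caenorhabditis elegans is described here across 4 groups of whole L4 larvae. Its members were all genes named ugt with a number that the array's annotation attaches, as a single symbol, to at least 1 probe set. This gave 64 genes of 17118 on the array. Of these, 3 (ugt-46, ugt-48 and ugt-50) had more than 1 probe set with a single symbol, and the one with the brightest average signal represents the gene. A further 1 probe set, annotated to ugt-22 together with another symbol, was left out of the family. The RefSeq gene table for assembly WBcel235 lists 67 such genes, and ugt-34, ugt-49 and ugt-65 were not analysed here.

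UGT enzymes belong to the conjugation phase of detoxification. They join a sugar taken from a UDP-sugar to a small lipophilic molecule, which makes that molecule more soluble and easier to export, and cytochrome P450 enzymes and ABC transporters often act before and after them. In vertebrates the sugar is usually glucuronic acid, whereas several conjugates known from C. elegans carry glucose. Most worm UGT genes have no known substrate; ugt-22 is among the few studied, since it affects how well the anthelmintic albendazole works on the worm. Cadmium (Cd) itself is not a UGT substrate: it is a metal that cells bind with thiols, such as those of metallothioneins.

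The groups were MT KO larvae raised with Cd, MT KO larvae raised without Cd, wild-type larvae raised with Cd and wild-type larvae raised without Cd, with 3 arrays each and 12 in all. MT KO carries mtl-1,mtl-2(zs1) and lacks both metallothionein genes; the labels name the N2 (Bristol) strain for all 12 samples. All animals were synchronised and kept at 20 °C on OP50 bacteria, and the exposed ones met 30 µM Cd from hatching to L4. The labels do not say whether the 3 arrays of a group came from separate cultures, so the p-values reflect only how far these arrays scatter, and that scatter may be technical.

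Values are log2 GCRMA values, 1 per probe set and array, and all 22548 probe sets that are not manufacturer's controls were tested together with limma. A call is a limma p-value, adjusted by the Benjamini-Hochberg method over these probe sets, under 0.05. The strain labels held: at its brightest probe set mtl-2 averaged 3.62 in MT KO with Cd and 11.43 in wild type with Cd. The exposure was visible in cdr-1, a cadmium-responsive gene, which averaged 10.10 in MT KO with Cd, 7.83 in MT KO without Cd, 10.51 in wild type with Cd and 3.73 in wild type without Cd. The unexposed MT KO arrays thus already stood above the unexposed wild-type arrays at this gene (limma adjusted p = 2.43e-06). The wild-type mean without Cd lay below the median of all values, so the measured 17.1-fold difference depends on background. All 10 intestine markers, all 6 neuron markers and all 4 body wall muscle markers lay above the median of all values on every array. Arrays of 1 group correlated at r between 0.9911 and 0.9969. The 3′ minus 5′ signal of the GAPDH and actin controls, a sign of RNA quality, averaged 0.92 ± 0.17 (log2, SD, n = 3) in MT KO with Cd, 1.38 ± 0.10 in MT KO without Cd, 1.13 ± 0.10 in wild type with Cd and 1.98 ± 0.78 in wild type without Cd. It thus moved with Cd in both strains, and its highest value, 2.81, was that of wild type without Cd replicate 1, which also had the lowest array weight of the 12, 0.289.

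Not all members gave a signal that can be told from background. Of the 64, 36 lay above the median of all values (4.03) on all 12 arrays, 19 lay below it on all 12, and 9 had arrays on both sides. No detection calls were used, so a value near or below 4.03 may be background, and a change measured there has no reliable fold. Probe sets of the brightest signal were those of ugt-12, ugt-58 and ugt-46, with means over 12 arrays of 9.48, 8.87 and 8.80, and those of the weakest were ugt-35, ugt-37 and ugt-56, at 2.14, 2.49 and 2.58. Signals of different probe sets do not order transcript amounts. The spread was small: the median SD of a member over 3 arrays was between 0.119 and 0.134 in the 4 groups.

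**Figure D1:**
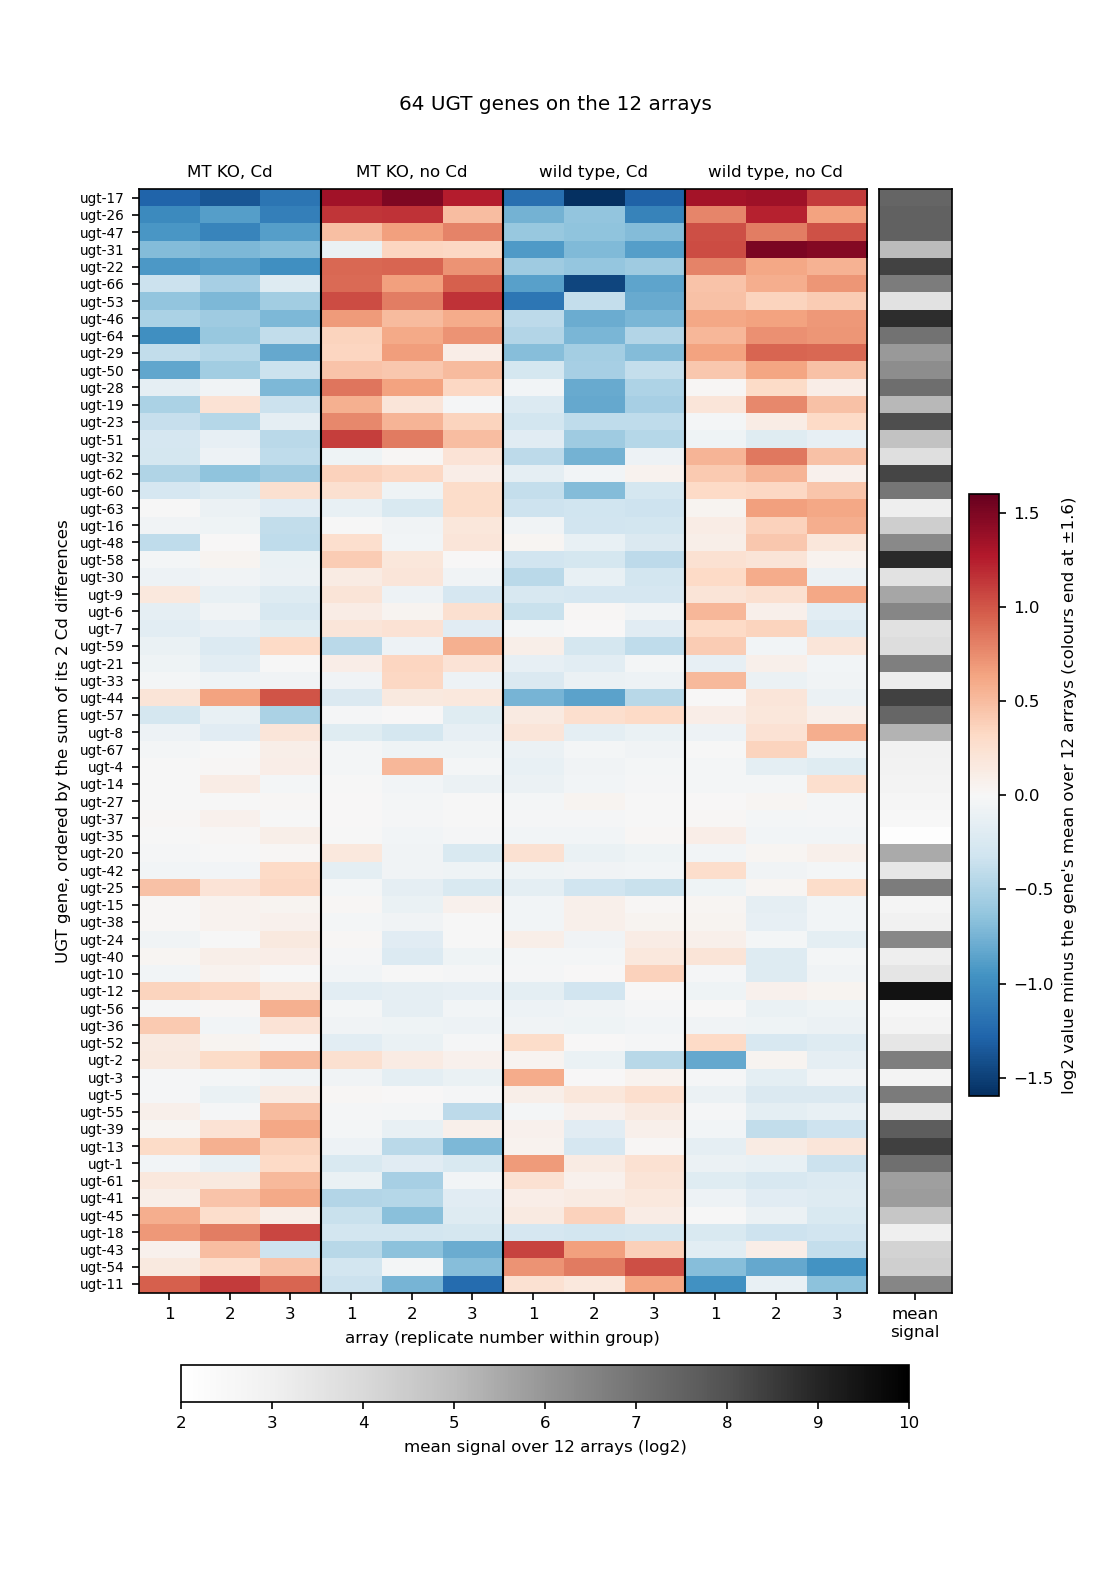
Each row is 1 UGT gene and each column 1 array, grouped by strain and exposure; colour gives the log2 value minus the gene's own mean over 12 arrays, and the grey strip gives that mean signal. The uppermost rows, led by ugt-17, are blue in both Cd groups and red in both groups without Cd, ugt-11 in the lowest row runs the other way, and many rows in the middle, most of them of weak signal, are pale.

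With Cd, more UGT genes fell than rose in both strains. In MT KO, 16 of 64 fell and 9 rose, or 25% and 14.1%, against 11% of all probe sets called lower and 11.5% called higher. In wild type, 21 fell and 5 rose, or 32.8% and 7.81%, against 5.5% of all probe sets called lower and 6.44% called higher. The share that fell was thus above that of all probe sets in both strains, while the share that rose was near it. The median difference over the 64 genes was 0.005 in MT KO and -0.16 in wild type (log2), against 0.02 and 0.002 over all probe sets, and in MT KO it stayed near that of all probe sets. Most falls were of brighter members. Of the 40 whose mean exceeded the median of all values, 15 fell in MT KO and 17 in wild type. These were 37.5% and 42.5%, beside 17.3% and 9.86% of all probe sets that bright. Of the same 40, 8 rose in MT KO and 5 in wild type, or 20% and 12.5%, beside 18.2% and 11.6%. Of the 24 dimmer members, 1 fell and 1 rose in MT KO, 4.17% each. In wild type 4 of these 24 fell and 0 rose, or 16.7% and 0%. Beside them, all probe sets, bright or dim, were called lower at 11% in MT KO and 5.5% in wild type, and higher at 11.5% and 6.44%. Bright probe sets were called more often, as given above, so these shares are too high a yardstick for dim members. The share among dim probe sets alone was not counted. Called falls measured at least 2-fold in 10 genes in MT KO and in 11 in wild type. Some of these ended below the median of all values, where a fold is not reliable: ugt-53 in both strains and ugt-32 in wild type. The share of all probe sets that fell so far was not counted, so these counts have no yardstick.

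Every called member had its 3 arrays with Cd wholly on one side of its 3 arrays without Cd. That held for 25 of 25 in MT KO and 26 of 26 in wild type. A call on 3 against 3 arrays makes such separation likely, so it adds no support. Called or not, 21 of the 64 members were separated upward and 18 downward in MT KO. In wild type 10 were separated upward and 25 downward. Among all probe sets the arrays were separated so at 27.3% higher and 15.9% lower in MT KO, and at 13.4% higher and 11.5% lower in wild type. The count of rises in wild type was fragile: it was 4 without MT KO with Cd replicate 3, and 2 or 3 without any 1 of the other 11 arrays. When the fit was adjusted for the 3′ minus 5′ signal, 19 of the 26 wild-type calls and 23 of the 25 MT KO calls were made again in the same direction. The calls lost there were those of ugt-1, ugt-11, ugt-19, ugt-30, ugt-43, ugt-44 and ugt-58 in wild type (limma adjusted p between 0.0867 and 0.351) and of ugt-28 and ugt-61 in MT KO (0.0508 and 0.0533). In whole animals, fewer cells of a type and less RNA per cell cannot be told apart.

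Of the 37 members called with Cd in at least 1 strain, 14 were called in the same direction in both and 23 in 1 strain only. Across the 64 genes the Cd differences in MT KO and in wild type, which have no array in common, correlated at r = 0.816, as a description of genes that are not independent replicates; across all 22548 probe sets r was 0.637. A gene was called lower in both strains 12 times, or in 18.8% of members, against 3.28% of all probe sets. It was called higher in both strains 2 times, or in 3.12% of members, against 4.17%. In MT KO only, 10.9% of members were called higher and 6.25% lower, against 7.26% and 7.62% of all probe sets. In wild type only, 4.69% were called higher and 14.1% lower, against 2.21% and 2.15%. The signs of the 2 differences were the same for 51 members.

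**Figure D2:**
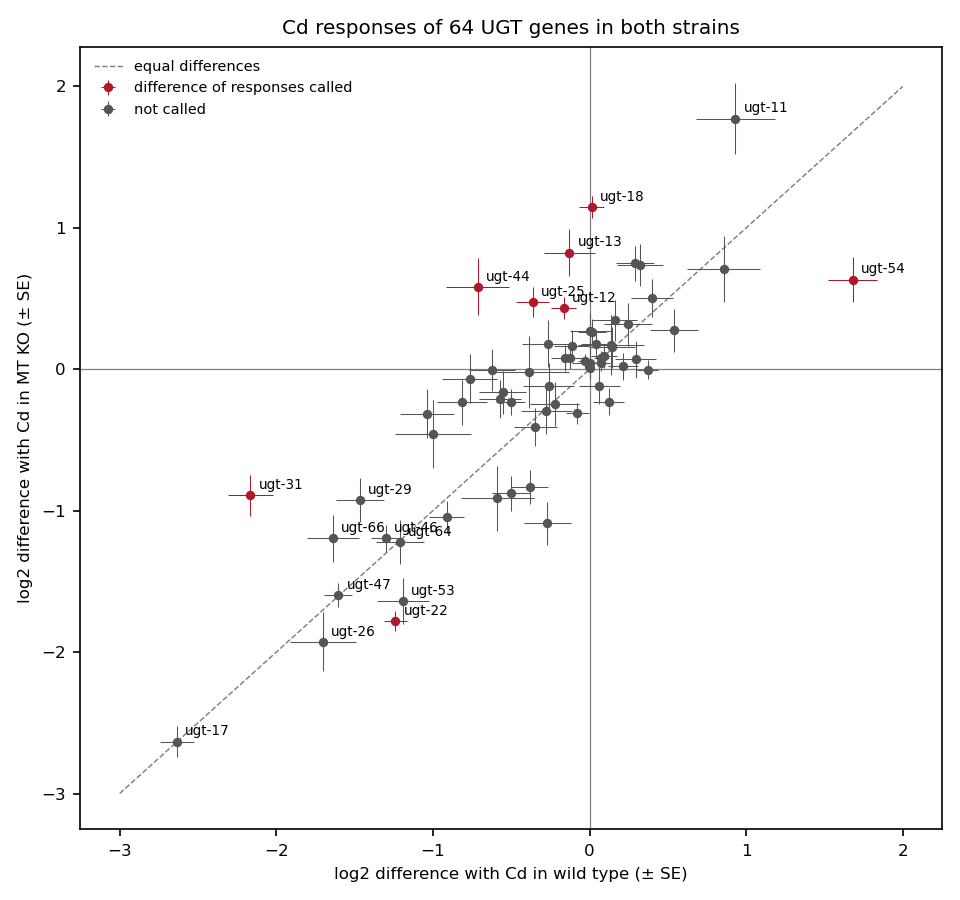
Each point is 1 of the 64 UGT genes, with its log2 difference with Cd in wild type (x) and in MT KO (y) and the SE of each from the limma fit. Most points lie near the dashed line of equal differences, with ugt-17 at the far lower left, while the 8 red points, whose 2 responses differed by the test, include ugt-31, ugt-54, ugt-44 and ugt-18.

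The largest fall in both strains was that of ugt-17. It read 6.11, 6.03 and 6.23 in MT KO with Cd, against 8.74, 8.89 and 8.65 in MT KO without Cd. Wild-type arrays read 6.18, 5.80 and 6.10 with Cd, against 8.72, 8.75 and 8.52 without Cd. The arrays with Cd formed 1 low band in both strains and those without Cd 1 high band, more than 2 log2 units apart. The fall was 6.21-fold in MT KO (log2 -2.63, SE 0.11, limma adjusted p = 1.01e-06) and 6.21-fold in wild type (log2 -2.64, SE 0.11, limma adjusted p = 9.76e-07). The difference between the 2 responses was 0.00, with a 95% interval from -0.35 to 0.35.

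Its neighbour on chromosome V, ugt-47, with 1 other protein-coding gene between them in RefSeq's order, fell alongside it. It read 6.59, 6.46 and 6.64 in MT KO with Cd, against 8.0, 8.17 and 8.31 in MT KO without Cd. The wild-type values were 6.91, 6.87 and 6.83 with Cd, against 8.55, 8.33 and 8.54 without Cd. Again no array with Cd reached any array without it. The falls were 3.03-fold in MT KO and 3.04-fold in wild type (limma adjusted p = 3.46e-06 and 4.04e-06), and the responses differed by 0.01, with a 95% interval from -0.27 to 0.28.

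On chromosome I, ugt-26 fell 3.80-fold in MT KO and 3.26-fold in wild type. It read 6.49, 6.63 and 6.42 in MT KO with Cd, against 8.65, 8.67 and 8.0 in MT KO without Cd, and 6.76, 6.89 and 6.45 in wild type with Cd, against 8.29, 8.75 and 8.16 in wild type without Cd. The lowest array without Cd was thus still more than 1 log2 unit above the highest array with Cd in each strain (limma adjusted p = 0.000147 and 0.000746). For this gene the interval of the difference of responses, from -0.89 to 0.44, is wide and holds changes of either sign.

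The albendazole-related gene ugt-22, on chromosome IV, fell in both strains, but further in MT KO. It read 7.41, 7.44 and 7.35 in MT KO with Cd, against 9.25, 9.26 and 9.04 in MT KO without Cd. Wild-type values were 7.76, 7.72 and 7.76 with Cd, against 9.12, 8.95 and 8.89 without Cd. All 3 MT KO arrays with Cd thus lay below all 3 wild-type arrays with Cd. The falls were 3.44-fold and 2.36-fold (limma adjusted p = 9.85e-07 and 6.29e-06), and the response in MT KO was lower by 0.54 (95% interval -0.77 to -0.31, limma adjusted p = 0.0143).

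A further 7 genes were called lower in both strains and did not pass the test of a difference between the responses. Among them ugt-46, on the X chromosome, read 8.30, 8.23 and 8.08 in MT KO with Cd, against 9.49, 9.31 and 9.40 in MT KO without Cd, and 8.38, 8.01 and 8.07 in wild type with Cd, against 9.42, 9.45 and 9.5 in wild type without Cd. Its second probe set gave falls of similar size, log2 -1.47 in MT KO and -1.22 in wild type, beside -1.19 and -1.30 at the first. The falls of ugt-64 were log2 -1.22 in MT KO and -1.21 in wild type, with a 95% interval of their difference from -0.50 to 0.48. In MT KO ugt-66 fell by 1.2, ugt-29 by 0.92 and ugt-23 by 0.88, and in wild type they fell by 1.64, 1.47 and 0.50. The call of ugt-23 in wild type was lost without any 1 of 5 wild-type arrays, all but replicate 1 without Cd, with limma adjusted p between 0.0504 and 0.0851.

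The remaining ones carry limits of the probe sets. The gene ugt-53 fell by 1.64 in MT KO and by 1.19 in wild type, but its mean with Cd was 2.98 in MT KO and 2.82 in wild type, in the range of background. The gene ugt-50 fell by 1.04 in MT KO and by 0.91 in wild type at the probe set used, whereas its other probe sets gave 0.26 and -0.28 in MT KO and 0.08 and 0.09 in wild type, none of them called. Averaged over its 3 probe sets, the wild-type call of ugt-50 was lost (limma adjusted p = 0.074).

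**Figure D3:**
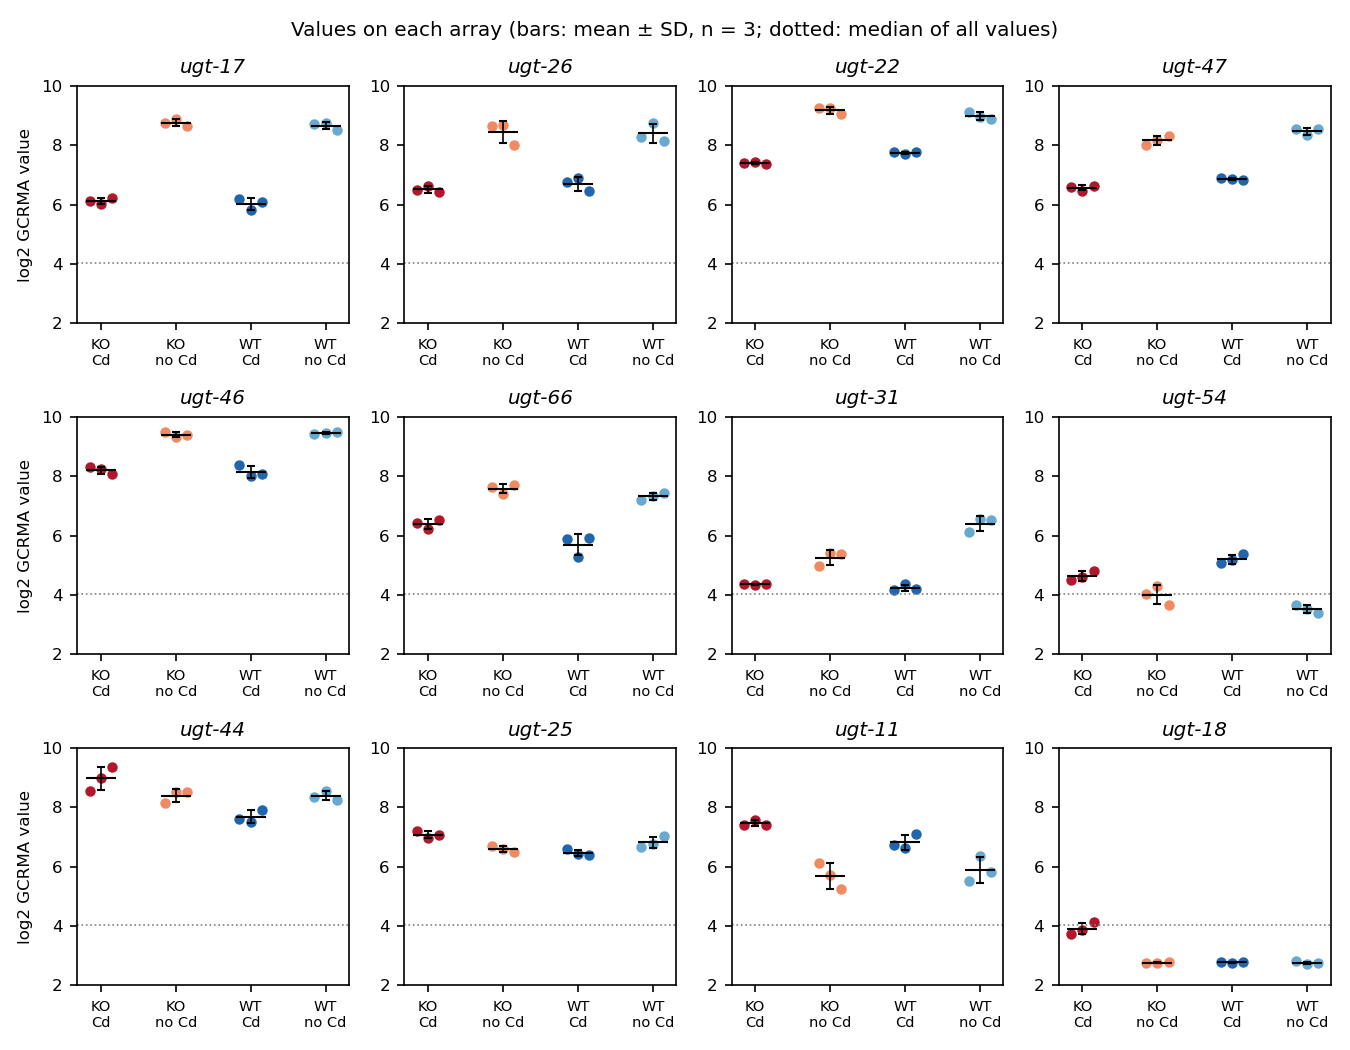
Log2 GCRMA values of 12 UGT genes on every array, with each group's mean and SD over 3 arrays; the dotted line is the median of all values, 4.03. In ugt-17, ugt-26, ugt-22, ugt-47, ugt-46 and ugt-66 both groups with Cd lie below both groups without Cd, ugt-11 runs the other way in both strains, and in ugt-31, ugt-54, ugt-44, ugt-25 and ugt-18 the 2 strains differ in the size or sign of their change with Cd.

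Rises were fewer and smaller. The largest in MT KO was that of ugt-11, on chromosome V, which read 7.41, 7.58 and 7.4 in MT KO with Cd, against 6.11, 5.72 and 5.24 in MT KO without Cd. Wild-type arrays read 6.71, 6.63 and 7.10 with Cd, against 5.5, 6.35 and 5.80 without Cd. The groups without Cd were spread over almost 1 log2 unit, and those with Cd less. The rise was 3.42-fold in MT KO (limma adjusted p = 0.00078) and 1.91-fold in wild type (limma adjusted p = 0.0436). The wild-type call was lost without 9 of the 12 arrays, all but MT KO without Cd replicates 1 and 3 and wild type without Cd replicate 2, with limma adjusted p up to 0.145, and after adjustment for the 3′ minus 5′ signal (limma adjusted p = 0.314). The difference between the responses, 0.84, did not pass (95% interval 0.03 to 1.65, limma adjusted p = 0.271).

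In wild type ugt-54, on chromosome IV, rose most. It read 4.49, 4.61 and 4.80 in MT KO with Cd, against 4.04, 4.30 and 3.66 in MT KO without Cd. The wild-type values were 5.06, 5.17 and 5.37 with Cd, against 3.66, 3.52 and 3.38 without Cd. Its means without Cd, 4.0 in MT KO and 3.52 in wild type, lay below the median of all values, so the folds depend on background. The log2 rise was 0.63 in MT KO and 1.68 in wild type (limma adjusted p = 0.017 and 0.000161), and the response in MT KO was lower by 1.05 (95% interval -1.55 to -0.54, limma adjusted p = 0.0273). That difference was lost when any 1 of 6 arrays was left out, namely replicates 1 and 2 of MT KO with Cd, replicates 2 and 3 of wild type with Cd, and replicates 2 and 3 of wild type without Cd (limma adjusted p between 0.054 and 0.0654). The MT KO call was lost when replicate 3 of MT KO with Cd was left out (0.0604) and when the 6 MT KO arrays were fitted alone (0.0745).

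Of the other members that rose in MT KO, ugt-41 rose by 0.75, ugt-45 by 0.74 and ugt-61 by 0.51 (log2), beside differences of 0.29, 0.32 and 0.40 in wild type that did not pass. For none of these was the difference between the responses called. The call of ugt-61 was lost when replicate 3 of MT KO with Cd (limma adjusted p = 0.0717) or replicate 2 of MT KO without Cd (0.0531) was left out, when the 6 MT KO arrays were fitted alone (0.115) and after adjustment for the 3′ minus 5′ signal (0.0533). In wild type, ugt-5 rose by 0.37 (SE 0.07, limma adjusted p = 0.00653), with 0.00 in MT KO. The rises of ugt-43 (0.86) and ugt-1 (0.54) in wild type had limma adjusted p of 0.0445 and 0.0491. That of ugt-43 was lost without 9 of the 12 arrays, all but MT KO with Cd replicates 2 and 3 and wild type with Cd replicate 3 (limma adjusted p up to 0.136), and that of ugt-1 without 10, all but MT KO with Cd replicate 3 and wild type with Cd replicate 2 (up to 0.134).

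The responses of 8 members differed between the strains by the test of the difference itself, 6 higher and 2 lower in MT KO, or 9.38% and 3.12%, against 2.09% and 3.36% of all probe sets. Besides ugt-22 and ugt-54, these were ugt-44, ugt-31, ugt-18, ugt-13, ugt-25 and ugt-12. The calls of ugt-12, ugt-18, ugt-22, ugt-25 and ugt-31 held under every alternative in which they were tested; ugt-18 was too dim for the one that keeps brighter probe sets.

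The gene ugt-31, on chromosome I, differed between the strains before any exposure. It read 4.36, 4.34 and 4.37 in MT KO with Cd, against 4.95, 5.40 and 5.39 in MT KO without Cd. Wild-type arrays read 4.16, 4.35 and 4.18 with Cd, against 6.10, 6.57 and 6.52 without Cd. The groups with Cd overlapped near the median of all values, whereas without Cd every MT KO array was below every wild-type array. The fall with Cd was 0.89 in MT KO and 2.17 in wild type (log2). Both ended at means near the median of all values (4.36 and 4.23), where values may be background, so no fold is given. Whether background cut either fall short was not tested. The difference of responses was 1.28 (95% interval 0.82 to 1.73, limma adjusted p = 0.00695). It lay close in size to the strain difference without Cd, where ugt-31 was lower in MT KO than in wild type by 1.15 (log2, limma adjusted p = 0.0071), a call lost when those 6 arrays were fitted alone (0.109).

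In ugt-44, on chromosome IV, the 2 responses had opposite signs. It read 8.56, 8.99 and 9.36 in MT KO with Cd, against 8.13, 8.51 and 8.53 in MT KO without Cd. In wild type it read 7.61, 7.49 and 7.92 with Cd, against 8.36, 8.54 and 8.26 without Cd. Without Cd the strains overlapped, and with Cd they were separated, with MT KO higher. The difference was 0.58 in MT KO, which did not pass (limma adjusted p = 0.0672), and -0.71 in wild type (limma adjusted p = 0.0481), and the responses differed by 1.30 (95% interval 0.66 to 1.94, limma adjusted p = 0.0298). That difference was lost when replicate 2 of MT KO with Cd, or replicate 1 or 2 of any of the other 3 groups, was left out, with limma adjusted p between 0.052 and 0.0757. The wild-type fall was lost without any 1 of 9 arrays, including all 6 of wild type (limma adjusted p up to 0.154), the others being MT KO with Cd replicate 2 and MT KO without Cd replicates 2 and 3. It was also lost after adjustment for the 3′ minus 5′ signal (0.167) and under quantile normalization (0.0538). The strain difference with Cd, 2.46-fold, was kept under every alternative (limma adjusted p = 0.00408).

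A similar pattern of smaller size was seen in ugt-25, of chromosome I. It read 7.21, 6.95 and 7.06 in MT KO with Cd, against 6.71, 6.60 and 6.5 in MT KO without Cd. Wild-type arrays read 6.58, 6.42 and 6.38 with Cd, against 6.67, 6.77 and 7.03 without Cd. The MT KO arrays with Cd were all above their controls and the wild-type arrays with Cd all below theirs. The rise in MT KO was 0.48 (limma adjusted p = 0.00928), the wild-type difference of -0.36 did not pass (limma adjusted p = 0.0539), and the responses differed by 0.84 (95% interval 0.51 to 1.17, limma adjusted p = 0.0113).

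On chromosome V, ugt-12 and ugt-13 rose in MT KO by 0.43 and 0.83 (limma adjusted p = 0.00325 and 0.00529), beside differences of -0.16 and -0.13 in wild type. The gene ugt-12 read 9.83, 9.81 and 9.65 in MT KO with Cd, against 9.32, 9.34 and 9.35 in MT KO without Cd, and 9.32, 9.18 and 9.49 in wild type with Cd, against 9.42, 9.55 and 9.52 in wild type without Cd. Its MT KO arrays with Cd were thus above the other 9. The responses differed by 0.60 for ugt-12 (limma adjusted p = 0.0145) and by 0.95 for ugt-13 (limma adjusted p = 0.0469). The call of ugt-13 was lost without any 1 of 10 arrays, all but MT KO without Cd replicate 1 and wild type without Cd replicate 1, with limma adjusted p between 0.0732 and 0.104.

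The gene ugt-18 stood apart in MT KO with Cd alone, at a low level. It read 3.74, 3.86 and 4.12 in MT KO with Cd, against 2.75, 2.75 and 2.76 in MT KO without Cd. The wild-type values were 2.77, 2.75 and 2.77 with Cd, against 2.80, 2.71 and 2.74 without Cd. The 9 arrays outside MT KO with Cd lay within 0.1 of one another, and even the higher group's mean, 3.91, was below the median of all values, so the size of its differences depends on background and is no measure of transcript change. The measured difference with Cd in MT KO was 1.15 (log2, limma adjusted p = 1.14e-05) and that between the responses 1.14 (limma adjusted p = 0.00109).

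Without Cd, few UGT genes were called different between MT KO and wild type. At the probe sets used, only ugt-51 passed besides ugt-31 among the 64, so that 1.56% were higher and 1.56% lower, against 0.94% and 0.705% of all probe sets. It read 5.91, 5.62 and 5.29 in MT KO without Cd, against 4.72, 4.60 and 4.67 in wild type without Cd, a 1.92-fold difference (limma adjusted p = 0.0181). With Cd it read 4.53, 4.66 and 4.37 in MT KO and 4.61, 4.23 and 4.34 in wild type, so that the strains overlapped. Its strain call was lost when replicate 2 of either group without Cd was left out (limma adjusted p = 0.0656 for that of MT KO and 0.0664 for that of wild type), and when those 6 arrays were fitted alone (0.119). Without wild type with Cd replicate 2 a second gene was called higher. At a probe set not used here, ugt-50 was called higher in MT KO without Cd by 0.45 (limma adjusted p = 0.0438). Its wild-type mean there, 3.84, lay in the range of background.

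With Cd in both strains, 5 UGT genes were higher and 3 lower in MT KO than in wild type, or 7.81% and 4.69%, against 3.62% and 4.94% of all probe sets. The higher ones were ugt-44, ugt-18, ugt-66, ugt-25 and ugt-12, and the lower ones ugt-57, ugt-62 and ugt-22. At the probe set used, ugt-48 was not called (-0.16), but its other probe set was called lower (-0.47, limma adjusted p = 0.0236). That other probe set also fell with Cd in MT KO by 0.46 (limma adjusted p = 0.0111). The one used fell there by 0.41, which did not pass (limma adjusted p = 0.0614). The gene ugt-57 read 7.07, 7.24 and 6.85 in MT KO with Cd, against 7.50, 7.63 and 7.68 in wild type with Cd, a log2 difference of -0.55 (limma adjusted p = 0.00786); its difference with Cd passed in neither strain. The gene ugt-62 read 7.80, 7.63 and 7.70 in MT KO with Cd, against 8.13, 8.23 and 8.33 in wild type with Cd, a difference of -0.52 (limma adjusted p = 0.0262). The calls of ugt-62 and ugt-22 were lost without MT KO with Cd replicate 3, wild type with Cd replicate 1 or wild type with Cd replicate 3, which left 1 gene called lower (limma adjusted p between 0.0516 and 0.0867 for ugt-62 and between 0.053 and 0.0617 for ugt-22). That of ugt-62 was also lost without MT KO with Cd replicate 2 or wild type with Cd replicate 2 (0.0871 and 0.0731). Without MT KO without Cd replicate 3, 5 genes were called lower. The call of ugt-66, 0.70 higher in MT KO, was lost when replicate 1 or replicate 3 of MT KO with Cd was left out (0.0854 and 0.0897), and with the 6 arrays with Cd fitted alone it was lost (0.116), as was that of ugt-12 (0.0643).

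Some members were called in 1 strain only, which does not show that the strains differ. In MT KO, ugt-62 fell by 0.83, ugt-51 by 1.09, ugt-28 by 0.91 and ugt-21 by 0.31, beside differences of -0.38, -0.27, -0.59 and -0.08 in wild type. For none of these 4 did the difference of responses pass. They were 6.25% of members, near the 7.62% of all probe sets that were called lower in MT KO only. The calls of ugt-28 and ugt-21 in MT KO were lost without single arrays, which for ugt-28 were replicate 3 with Cd and replicates 1 and 2 without Cd (limma adjusted p between 0.0575 and 0.0649), and for ugt-21 replicate 2 with Cd and replicate 2 without Cd (0.0583 and 0.0575), all of MT KO. In wild type 9 genes were called lower that were not called in MT KO, namely ugt-9, ugt-16, ugt-19, ugt-30, ugt-32, ugt-44, ugt-58, ugt-60 and ugt-63, and of these only ugt-44 passed the test of the difference. These 9 were 14.1% of members, against 2.15% of all probe sets called lower in wild type only. The measured differences of the 9 lay between -0.50 for ugt-58 and -1.04 for ugt-32. Both wild-type means of ugt-30 (3.28 with Cd, 3.84 without Cd) and of ugt-63 (2.76 with Cd, 3.52 without Cd) and the mean of ugt-32 with Cd (3.31) lay below the median of all values, in the range of background. Of these, ugt-60 kept its call under every alternative, and ugt-32 under every one but the filter on dim probe sets, which leaves it out. The calls of ugt-16 and ugt-19 were lost without replicate 2 or 3 of either wild-type group (limma adjusted p between 0.0638 and 0.081 for ugt-16, and between 0.0586 and 0.0942 for ugt-19). That of ugt-63 was lost without any 1 of 5 wild-type arrays, all but replicate 1 without Cd (between 0.0539 and 0.0692), and that of ugt-9 without any replicate with Cd or replicate 3 without Cd (between 0.061 and 0.0691). As given above, the calls of ugt-19, ugt-30, ugt-44 and ugt-58 were lost after adjustment for the 3′ minus 5′ signal. That of ugt-30 was also lost without any 1 of 11 arrays, all but wild type without Cd replicate 3 (limma adjusted p between 0.0526 and 0.136).

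Neighbouring UGT genes did not share 1 response. In RefSeq's gene order, 36 of the measured members lay in 12 runs in which at most 1 other protein-coding gene stood between successive UGT genes, and 28 lay alone. Of the 40 measured on chromosome V, 6 fell and 6 rose in MT KO, and 10 fell and 3 rose in wild type. Of the 28 that lay alone, 12 fell and 3 rose in MT KO, and 14 fell and 1 rose in wild type. Of the 36 in runs, 4 fell and 6 rose in MT KO, and 7 fell and 4 rose in wild type; 21 of these 36 and 19 of the 28 had a mean signal above the median of all values. Of all probe sets, 11% were called lower and 11.5% higher in MT KO, and 5.5% lower and 6.44% higher in wild type. Whether members in runs differ from members alone was not tested.

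The longest run held 8 genes on chromosome V, in the order ugt-12, ugt-11, ugt-9, ugt-10, ugt-67, ugt-8, ugt-14 and ugt-13. The genes at its ends, ugt-12 and ugt-13, and ugt-11 rose in MT KO, ugt-11 also rose in wild type, and ugt-9 fell by 0.62 in wild type and measured -0.01 in MT KO. The other 4, of which ugt-10, ugt-67 and ugt-14 had mean signals below the median of all values, passed in neither strain. The run on chromosome I held ugt-26, ugt-27, ugt-28 and ugt-25, of which the first fell in both strains, ugt-28 fell and ugt-25 rose in MT KO, and ugt-27 stayed between 2.63 and 2.70 on all arrays, in the range of background. In the pair ugt-43 and ugt-44 on chromosome IV, the first rose and the second fell in wild type. Of the 64 probe sets used, 12 bear the suffix by which the manufacturer marks probes that match several transcripts, among them those of ugt-17, ugt-46, ugt-12 and ugt-5, so signal of a close relative cannot be told apart there.

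**Figure D4:**
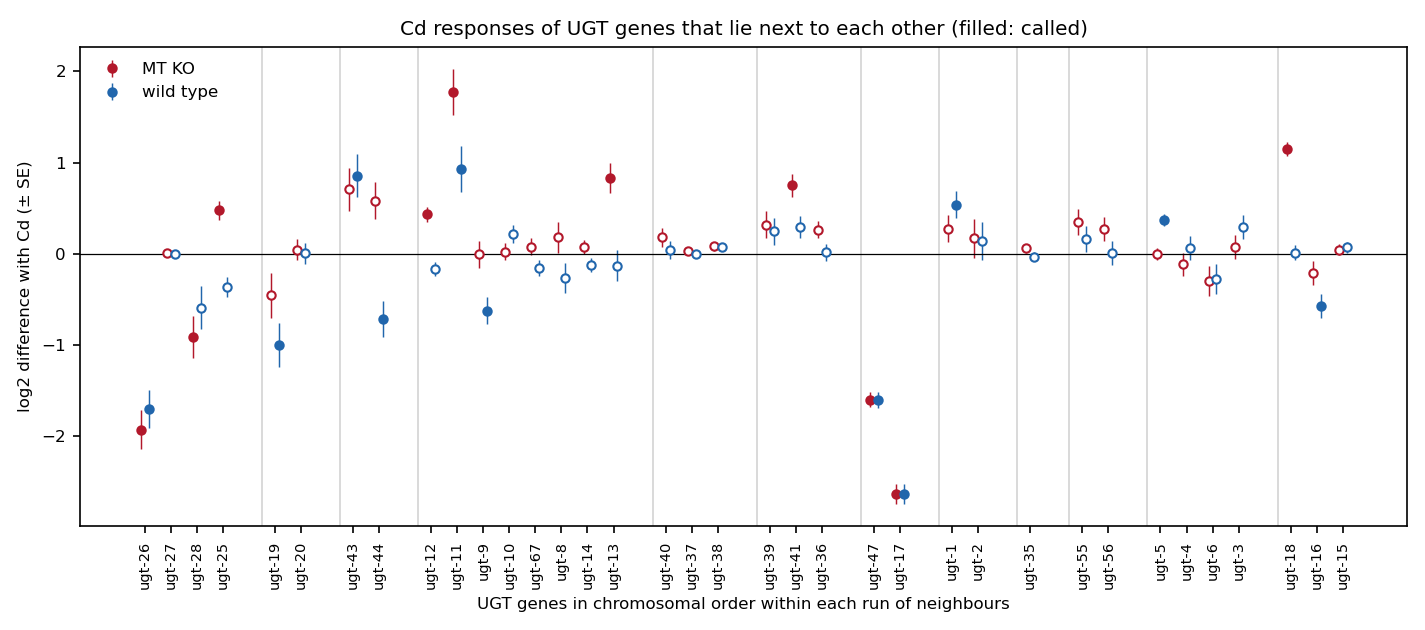
Log2 difference with Cd (± SE of the limma fit) in MT KO and wild type for the 36 measured UGT genes that lie in runs, in chromosomal order within each run, with grey lines between runs; filled points passed the test. The pair ugt-47 and ugt-17 moved together in both strains, whereas the 8-gene run that starts with ugt-12 holds rises, a fall and genes near 0.

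The other detoxification families were set beside the UGT genes by counts alone. Of 73 cytochrome P450 genes, 14 rose and 5 fell in MT KO (19.2% and 6.85%). In wild type 12 rose and 7 fell (16.4% and 9.59%). Of 40 glutathione S-transferase genes with a numbered symbol, 10 rose and 4 fell in MT KO (25% and 10%). In wild type 11 rose and 6 fell (27.5% and 15%). In these 2 families more genes rose than fell in both strains, whereas among UGT genes more fell than rose. Of 29 ABC transporter genes, 5 rose and 4 fell in MT KO (17.2% and 13.8%). In wild type 3 rose and 9 fell (10.3% and 31%). Of all probe sets, 11.5% were called higher and 11% lower in MT KO, and 6.44% and 5.5% in wild type. The share of ABC genes that fell in wild type was thus near the 32.8% of UGT genes. By limma the difference of responses was called for 8 of the 64 UGT genes and for 0 of the 73 cytochrome P450 genes. Of the latter, 10 had an unadjusted limma p under 0.05. This difference was called higher for 2.09% and lower for 3.36% of all probe sets. Mean signal lay above the median of all values for 40 of the UGT genes but only 27 of the cytochrome P450 genes. Whether the families differ was not tested.

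**Figure D5:**
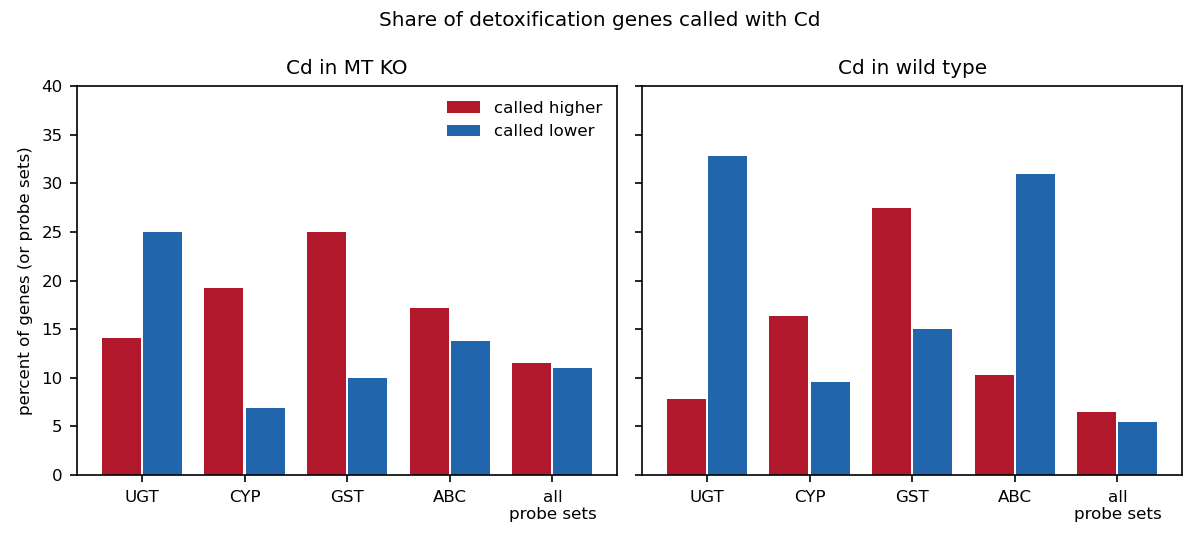
Percent of genes called higher and lower with Cd in MT KO (left) and wild type (right) for UGT, cytochrome P450 (CYP), glutathione S-transferase (GST) and ABC transporter genes, with all probe sets at the right of each panel. Among UGT genes the lower bar is the taller one in both strains, at 25% in MT KO and 32.8% in wild type.

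Genes that make and move the sugar donor showed small changes. All 5 of the measured genes on this list had signals above the median of all values on every array. The gene sqv-4, which encodes the UDP-glucose dehydrogenase that makes UDP-glucuronic acid, averaged 8.18 in MT KO with Cd, against 8.67 in MT KO without Cd, a fall of 0.49 (SE 0.07, limma adjusted p = 0.000882). In wild type its difference was 0.03 and did not pass, and the responses differed by -0.52 (limma adjusted p = 0.0179). The gene rml-1, a nucleotidyltransferase of nucleotide sugar synthesis, rose by 0.41 in wild type, and sqv-1, sqv-7 and D1005.2 passed in neither strain. Of 7 glucuronyltransferase genes of the proteoglycan type, which share the donor but not the UGT fold, 1 fell in MT KO (glct-6, -0.49) and 0 were called in wild type by limma, where 0 also had an unadjusted p under 0.05. Only 2 of these 7 had a mean signal above the median of all values, so the lack of calls among the dimmer ones may reflect background.

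Of 18 measured regulators of detoxification genes, 3 rose and 1 fell in MT KO (16.7% and 5.56%), and 5 rose in wild type (27.8%). All probe sets were called higher at 11.5% and lower at 11% in MT KO, and at 6.44% and 5.5% in wild type. The regulator pha-4 is also among the pharynx markers below, and elt-2 among those of the intestine. The gene wdr-23, which encodes a repressor of the stress factor SKN-1, rose by 0.49 in MT KO and by 0.56 in wild type, and pha-4, which encodes a FoxA factor of the pharynx and intestine, rose by 1.42 and 0.50. In wild type zip-2, a bZIP factor gene of the immune response, rose by 0.59 and pqm-1, a zinc finger factor gene of the stress response, by 0.52. In MT KO hizr-1, which encodes the high-zinc sensor, fell by 0.76, with a mean of 3.28 with Cd that lies below the median of all values. The call of a regulator's transcript says nothing of the protein's activity.

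Many worm UGT genes are expressed in the intestine, so its markers were read beside them. Of 10 intestine markers, 1 rose and 3 fell in MT KO, and 3 rose and 2 fell in wild type. For this and the marker counts that follow, 11.5% of all probe sets were called higher and 11% lower in MT KO. In wild type these shares were 6.44% and 5.5%, and for the difference of responses 2.09% and 3.36%. The peptide transporter gene pept-1 fell by 2.35 in MT KO and by 2.34 in wild type, while the esterase gene ges-1 rose by 0.71 and 0.83. The mean of the 10 markers lay between 9.401 and 9.595 on the MT KO arrays with Cd, between 9.657 and 9.762 on those without, between 9.349 and 9.415 on the wild-type arrays with Cd and between 9.485 and 9.614 on those without. This mean was lower with Cd in both strains, but it carries the large fall of pept-1. The median difference of the 10 markers was 0.11 in MT KO and -0.13 in wild type. Of the 10 differences, 6 were positive in MT KO and 4 in wild type. Single markers lay between -2.35 and 0.71 in MT KO and between -2.34 and 0.94 in wild type. The part of the intestine in the UGT falls was not tested. All 5 sperm markers fell in MT KO, their mean lying between 6.179 and 6.385 with Cd, against 9.004 and 9.422 without Cd. In wild type it lay between 7.961 and 8.252 with Cd, against 8.196 and 8.694 without Cd, and 0 of the 5 were called by limma, with 2 at an unadjusted p under 0.05. The difference of responses was called lower for all 5. Of 6 moulting genes, 4 fell and 1 rose in MT KO and 0 were called in wild type by limma, with 2 at an unadjusted p under 0.05; their difference of responses was called lower for 2 and higher for 1. Yolk genes, by contrast, fell alike in count, 3 of 5 in each strain, with medians of -1.35 in MT KO and -1.57 in wild type and 0 differences of response called by limma or at an unadjusted p under 0.05; only 1 of the 5 lay above the median of all values on every array.

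Markers of other tissues moved too, with the same shares of all probe sets to be set beside them. Of 6 pharynx markers, 5 rose in MT KO and 3 in wild type, with medians of 1.18 and 0.40, and the difference of responses was called higher for 3. Of 6 neuron markers, 5 rose in MT KO and 3 in wild type, with medians of 0.57 and 0.26, and the difference was called higher for 2. Of 7 markers of the hypodermis and seam, 1 rose and 2 fell in MT KO and 1 rose in wild type. Of 5 germline markers, 1 fell in MT KO and 1 rose in wild type. By limma 0 of 4 body wall muscle markers were called, with 0 at an unadjusted p under 0.05 in MT KO and 2 in wild type. The part of these markers in the UGT differences, both those shared by the strains and those that differ between them, was not tested.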

How the data were processed

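The authors deposited log2 values, 1 per probe set and array, for 12 arrays; the submitters' processing notes name GCRMA, whose version and whose settings are not given in the sources used here. GCRMA corrects background by probe sequence, equalises the arrays' distributions and summarises each probe set. The size of a change at a weak signal therefore depends on the background correction. The range, 1.56 to 14.5, settles the scale. No further normalization was applied. The 77 control probe sets were left out, and for the other 22548 a model with a mean for each group (3 arrays each, 8 residual degrees of freedom) was fitted with limma 3.58.1 (R 4.3.3) and its moderated variances. The 5 differences tested were Cd minus no Cd in each strain, the MT KO strain minus wild type at each exposure, and the interaction, in which the response of wild type is taken from that of MT KO; tests are two-sided, and the adjusted p covers all probe sets. Symbols come from the platform annotation; chromosome and gene order come from RefSeq (WBcel235), used without coordinates. The number of arrays limits the precision.

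Per comparison, named members were up to 8 with the largest called rise and fall, with separated arrays and a higher mean above the median of all values. Others are named by the family account. The members and lists were chosen with earlier results of these data known. Replicate numbers did not pair the arrays. Alternatives were an intensity trend, array weights, quantile normalization, a filter on dim probe sets, only the 6 arrays compared, the replicate number as a block, adjustment for the 3′ minus 5′ signal, the mean over a gene's probe sets, and leaving out each array.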

Additional observations from a re-analysis of the deposited data

Results flagged for a closer look

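For 8 UGT genes the Cd responses of MT KO and wild type differed by limma's test of the difference. The value is the response in MT KO minus that in wild type (log2). It was 1.3 for ugt-44, 1.28 for ugt-31, 1.14 for ugt-18, 0.95 for ugt-13, 0.84 for ugt-25 and 0.6 for ugt-12, and -0.54 for ugt-22 and -1.05 for ugt-54. All group means of ugt-18 lay below the median of all values, and those of ugt-31 with Cd lay near it, so these sizes depend on background. The test for 1 sample far from the rest of its group needs at least 4 samples and was not applied to these groups of 3.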

How the results depend on the processing

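The counts of called UGT genes depended most on settings where they were small. Quantile normalization and the 3′ minus 5′ covariate each left 2 rises with Cd in wild type in place of 5. With array weights 6, and in a fit of only the 6 arrays compared 5, genes were lower in MT KO with Cd in place of 3. That fit left 0 higher and 0 lower in MT KO without Cd in place of 1 each. Leaving out 1 array gave 2 to 4 rises and 14 to 20 falls with Cd in wild type, 8 to 10 rises and 14 to 17 falls in MT KO, 0 to 2 higher in MT KO without Cd, 4 to 6 higher and 1 to 5 lower in MT KO with Cd, and 4 to 6 higher and 1 to 3 lower differences of response. The 45 named differences gave 892 estimates under the alternatives, and in 87 of these the call was lost. The cause was not tested, and calls of members not named are outside this count. No estimate changed sign. Named two-group differences were chosen with separated arrays, so leaving out 1 array could not reverse them. The samples share only a number: with the replicate number as a block, 22 of 26 wild-type calls, 25 of 25 MT KO calls and 6 of 8 differences of response were made again, and same-numbered arrays correlated in their deviations between -0.204 and 0.242. In a fit without 1 array its group keeps 2.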
